A study of Bos taurus with 12 samples.

Results

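The genes described here handle circulating and stored fat: ANGPTL4, LPL, GPIHBP1, CD36, VLDLR, FABP3, FABP4, LIPE, PNPLA2 and MGLL. They were chosen by name, with the difference of ANGPTL4 between the diets already known. Of these 10 genes, 9 matched a probe through a RefSeq accession, and they were measured by 20 of the 43653 probes and made up 9 of the 12639 genes that could be named. GPIHBP1, the endothelial anchor of lipoprotein lipase, matched no probe and was not analysed here. Expression was measured in mammary biopsies from 12 multiparous Holstein cows in early lactation, 6 CONT and 6 REST, with 1 one-color Agilent bovine array per cow. CONT cows were fed a lactation diet ad libitum, and REST cows were given a ration diluted with barley straw (48% of dry matter) during 4 d, starting at 24 ± 3 d in milk. All cows of both groups received 50 µg of LPS into a healthy rear gland of the udder on d 3, so that CONT was challenged too, and the biopsy followed 24 h later. No unchallenged gland entered the arrays.

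Lipoprotein lipase, encoded by LPL, releases fatty acids from circulating triglycerides at the capillary wall, where it is held by GPIHBP1. ANGPTL4 is a secreted inhibitor of this enzyme, and its gene is a known target of the fatty acid sensing PPAR receptors that is induced by fasting in several tissues. In the lactating mammary gland, lipoprotein lipase delivers preformed fatty acids to the secretory epithelium for milk fat. CD36 takes up long-chain fatty acids, VLDLR binds triglyceride-rich lipoproteins, and FABP3 and FABP4 carry fatty acids inside cells. PNPLA2, LIPE and MGLL encode the lipases that cleave stored triglycerides, diglycerides and monoglycerides in turn.

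Values are log2 signals minus the 75th percentile of the array, so that 0 is the brightness of the 75th percentile spot. Signals of different probes are not set against each other, because each probe has its own brightness. The 75th percentile itself was an intensity of 577 to 1184 in CONT and 387 to 1082 in REST, and 57.6 to 76.0% and 63.2 to 78.1% of the probes were called well above background. The arrays came from 3 slides of 4 arrays, and every slide held both groups, but not evenly. Slide 1 held CONT cows 1076, 1024 and 0055 and REST cow 0078. Slide 2 held CONT cow 9040 and REST cows 0049, 7043 and 1015. Slide 3 held CONT cows 0015 and 8027 and REST cows 1018 and 1058. Diet was thus partly confounded with slide, and differences within slides 1 and 2 set a single cow against the others. The negative control signal was 37.7 to 58.2 on slide 1 and lower on all arrays of the other slides. The tissue label was checked on 12 secretory epithelium markers (caseins, whey proteins and others), whose mean log2 signal was 6.28 to 7.90 in CONT and 6.81 to 7.95 in REST. The lowest CONT value, 6.28, belonged to cow 8027, which also stood apart from the other CONT cows in FABP4 and in capillary endothelium markers, and results that rest on this cow are given without it as well. A biopsy holds several cell types, so fewer cells of a type and less RNA per cell cannot be told apart.

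Over all 43653 probes, no probe differed between REST and CONT with a Benjamini-Hochberg adjusted p under 0.05 in limma (0%), and none with Westfall-Young adjustment. The unadjusted p was under 0.05 for 1143 probes (2.62%), of which ANGPTL4 was the only 1 among the 20 probes of the genes described. The differences between the diets are therefore given as values with their standard errors, and no test is drawn from them, because the genes were chosen with this comparison known. The mean was higher in REST for 7 of the 9 genes and lower for LPL and VLDLR, whereas it was higher for 43.5% of all named genes. The median difference was 0.44 over the 9 genes and -0.03 over all named genes. Over the 9 genes it was 0.28 without CONT cow 8027, with 6 higher, and 0.25 without REST cow 0049. None of the 9 genes had groups without overlap, a pattern found in 0.128% of all probes. ANGPTL4 and FABP4 differed by 1 or more on the log2 scale, a size reached by 1.35% of the named genes.

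ANGPTL4, the inhibitor, had log2 signals of 0.87 to 4.20 in CONT (median 2.22) and 2.73 to 5.44 in REST (median 4.25). All 6 REST cows lay above the CONT mean and 3 lay above every CONT cow, but the groups overlapped through CONT cows 8027 (4.20) and 0055 (3.55) and REST cow 0049 (2.73). CONT cows averaged 2.38 ± 1.30 and REST cows 4.21 ± 0.91 (SD, n = 6 each). The log2 difference was 1.83 (SE 0.59), which is 3.56-fold. It was positive within each slide, at 1.63, 1.28 and 2.54. The first of these has REST cow 0078 alone in its group, and the second CONT cow 9040 alone. The difference lay between 1.53 and 2.20 when each cow was left out in turn. ANGPTL4 is represented by a single probe, which was well above background on all 12 arrays.

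LPL, the lipase itself, was the most variable of the genes between cows. Its log2 signal was 1.35 to 6.91 in CONT (median 5.60) and -0.22 to 6.96 in REST (median 3.32). The range over the 12 cows was 7.18 on the log2 scale, or 145-fold, and 0.0661% of the 9083 named genes measured above background on all arrays had a larger one. In CONT, cows 9040, 1076, 0015 and 1024 had values of 5.36 to 6.91, whereas cows 0055 and 8027 had 2.70 and 1.35. In REST, cows 0049 and 1015 had 6.96 and 6.92, which exceeded every CONT cow, and cow 1018 had the lowest value of all. The 3 LPL probes followed each other closely across cows (r = 0.97 to 1.00). The difference between the diets was -0.93 (SE 1.29) for the brightest probe and -0.37 and -0.68 for the others, and was thus smaller than the spread between cows. It was -1.74 with slide as a block, with -2.62, 0.49 and -2.75 within the slides, -0.13 without REST cow 1018 and -1.59 without CONT cow 8027.

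**Figure D1:**
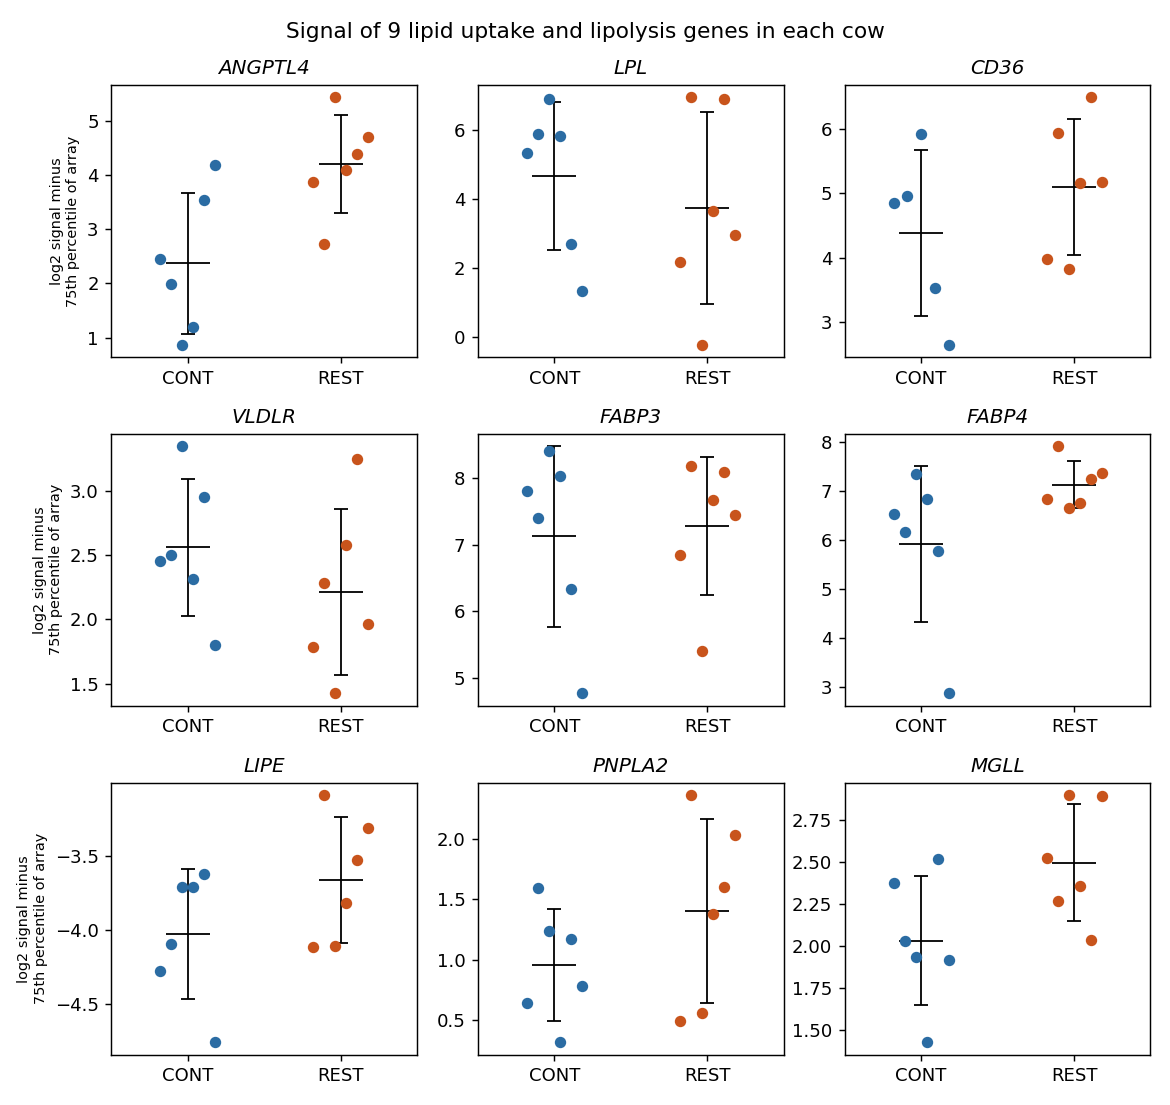
Log2 signal of the brightest probe of each gene, minus the 75th percentile of the array, with 1 point per cow (CONT blue, REST orange). Black bars give the mean ± SD of 6 cows (5 for CD36 in CONT). ANGPTL4 reaches 5.44 in REST and 4.20 in CONT, and LPL spans 7.18 log2 units.

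The receptors and transporters at the cell surface had differences smaller than that of ANGPTL4. CD36 had log2 signals of 2.65 to 5.92 in the 5 CONT cows measured (median 4.84) and 3.83 to 6.49 in REST (median 5.17). The spot of CONT cow 1024 was marked as an outlier and left out. The groups overlapped over most of their range, and CONT cow 8027 again had the lowest value. The difference was 0.72 (SE 0.63), and 0.57 and 0.64 for the other CD36 probes. It was 0.33 with slide as a block, 0.28 without cow 8027 and 1.1 without CONT cow 0015. Within the slides it was -0.27, 1.03 and 0.21, so its sign was not the same on each.

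VLDLR had log2 signals of 1.80 to 3.35 in CONT (median 2.48) and 1.42 to 3.24 in REST (median 2.12), within 1.92 log2 units over the 12 cows. The difference was -0.35 (SE 0.32), and all REST values lay below the highest CONT value. The other probes gave -0.25 and -0.32, of which the first stood well above background in 5 CONT and 4 REST cows only. With slide as a block the difference was -0.52, within the slides it was -0.80, 0.25 and -0.88, and it was -0.19 without REST cow 1018 and -0.55 without REST cow 1015.

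The intracellular carriers differed from each other. FABP3, the carrier of heart and mammary epithelium, had log2 signals of 4.77 to 8.40 in CONT (median 7.60) and 5.41 to 8.18 in REST (median 7.56). The groups thus covered almost the same range, with cows 8027 and 1018 lowest in their groups. The difference was 0.15 (SE 0.63), and it changed sign in 5 of 20 alternatives, being -0.32 without cow 8027 and -0.13 with slide as a block.

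FABP4, the carrier known from adipocytes and capillary endothelium, had log2 signals of 2.87 to 7.35 in CONT (median 6.36) and 6.65 to 7.92 in REST (median 7.04). All 6 REST cows lay above the CONT mean and 2 lay above every CONT cow. CONT cow 8027 (2.87) was far below the other CONT cows (5.78 to 7.35), whereas REST cows stayed within a narrow band. The difference was 1.20 (SE 0.62), or 2.31-fold, and 0.59 without cow 8027. It was 0.58, 0.76 and 1.90 within the slides, and cow 8027 was on the slide with the largest value.

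The genes of lipolysis had differences under 0.5 on the log2 scale. PNPLA2, the triglyceride lipase, had log2 signals of 0.32 to 1.59 in CONT (median 0.98) and 0.49 to 2.36 in REST (median 1.49), with a difference of 0.44 (SE 0.34). Cows 0049, 1058 and 1015 exceeded all CONT cows, whereas cows 0078 and 1018 lay below the CONT mean. Without cow 0049 the difference was 0.25, with slide as a block it was 0.29, and within the slides it was -0.54, 1.14 and 0.28.

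MGLL, the monoglyceride lipase, had log2 signals of 1.43 to 2.52 in CONT (median 1.98) and 2.03 to 2.90 in REST (median 2.44). All 6 REST cows were above the CONT mean of 2.03, cow 1015 only barely, and 3 were above every CONT cow. The difference was 0.46 (SE 0.22) and was -0.15 on slide 2, against 0.53 and 0.97 on the others. A second, dim MGLL probe, well above background on 4 arrays of each group, gave 0.08 and followed the first poorly (r = 0.26 across cows).

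LIPE, hormone-sensitive lipase, lay near background, with its brightest probe well above background on 5 arrays of each group. Its log2 signal was -4.76 to -3.62 in CONT (median -3.90) and -4.12 to -3.09 in REST (median -3.67). The difference was 0.37 (SE 0.25), but 0.09 after normexp background correction and 0.22 without cow 8027. Within the slides it was -0.31, 0.80 and 0.53, so its sign was not the same on each. The other LIPE probes were well above background on 1 array and on none, and are given no difference.

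**Figure D2:**
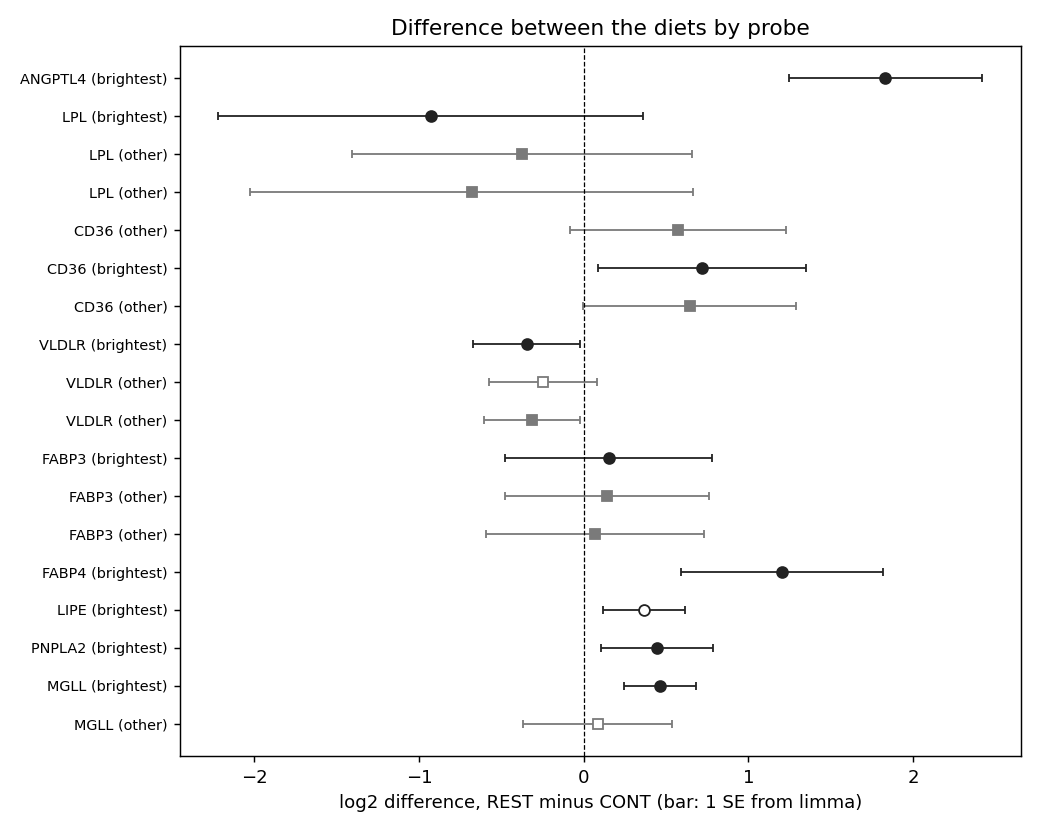
Log2 difference (REST minus CONT) with 1 SE from limma for each probe of the 9 genes, without the 2 LIPE probes at background. Circles are the brightest probe of a gene, squares its other probes, and open symbols were not well above background on every array. ANGPTL4 lies at 1.83 and FABP4 at 1.20, and the LPL probes lie below 0 with the widest bars.

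How the genes varied from cow to cow within a diet does not use the difference between the diets. Each value was therefore expressed as the deviation from the mean of its group, and Pearson correlations over the cows were tested by permuting cows within groups (100000 resamples, two-sided). The 36 pairs of the 9 genes were tested after the values had been seen, and p-values were adjusted over the 36. A total of 15 pairs passed an adjusted p of 0.05, 11 with a positive and 4 with a negative correlation, and 10 passed with Spearman's rho. With slide as a block, 11 pairs passed, and those lost were the 3 of VLDLR and ANGPTL4 with CD36. Without cow 8027, 9 pairs passed. Those lost were the same 4, both pairs of LIPE, and CD36 with FABP4 (r = 0.78, adjusted p = 0.0505, permutation test), while LPL with MGLL passed (r = -0.73, adjusted p = 0.0424, permutation test). Values on the same array share its RNA quality and scaling, and the part of these in the correlations was not tested.

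The uptake genes varied together. LPL and CD36 had r = 0.95 over 11 cows (rho = 0.94, adjusted p = 0.00036, permutation test), and LPL and FABP3 had r = 0.91 over 12 cows (rho = 0.88, adjusted p = 0.00036, permutation test). The cows with high LPL thus had high transporter and carrier signals in both groups, with r = 0.97 in CONT and 0.93 in REST for LPL and FABP3. CD36 and FABP3 had r = 0.93, and FABP3 and FABP4 had r = 0.86 (adjusted p = 0.0006 and 0.0009, permutation test). LPL and FABP4 were less tightly related (r = 0.70, rho = 0.77, adjusted p = 0.0039, permutation test). When the 2 cows whose LPL deviation was farthest from the median were left out, r was 0.87 with FABP3 and 0.62 with FABP4 (cows 8027 and 1018). For CD36, which was not measured in cow 1024, these were cows 0049 and 1018, with r = 0.97. VLDLR passed with CD36 (r = 0.79, adjusted p = 0.024), LPL (r = 0.71, adjusted p = 0.0459) and FABP3 (r = 0.68, adjusted p = 0.0493, permutation tests). With rho, VLDLR passed with CD36 (0.77) but not with LPL (0.66, adjusted p = 0.0829) or FABP3 (0.57, adjusted p = 0.116, permutation tests). The relation with LPL was r = 0.47 without cows 8027 and 1018.

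ANGPTL4 varied against the same genes. Its correlation with LPL was -0.80 (rho = -0.77, permutation p = 0.0019, adjusted p = 0.0078), and -0.72 without cows 0015 and 8027, whose ANGPTL4 deviations were the farthest from the median. Within CONT it was -0.96 (exact permutation p = 0.0028), and within REST -0.70 (exact permutation p = 0.103). The difference between these groups was not tested. With slide as a block r was -0.82, and over all alternatives it was -0.92 to -0.74 with adjusted p-values up to 0.0399. The cows show the pattern directly: CONT cow 0015 had the lowest ANGPTL4 (0.87) and the highest CONT LPL (6.91), and CONT cow 8027 had the highest CONT ANGPTL4 (4.20) and the lowest CONT LPL (1.35). In REST, cow 1018 had the highest ANGPTL4 (5.44) and the lowest LPL (-0.22), and cow 0049 had the lowest ANGPTL4 (2.73) and the highest LPL (6.96). REST cow 1015 departed from it, with high signals of both (4.39 and 6.92).

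**Figure D3:**
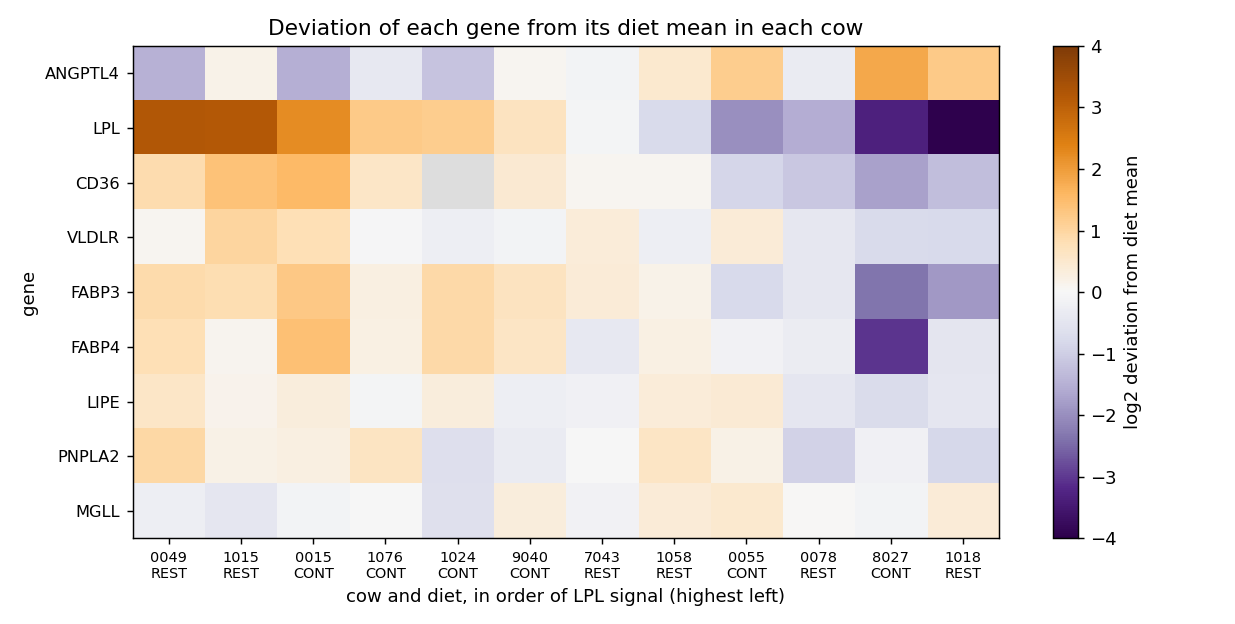
Deviation of each gene from its group mean (log2, color scale) in each cow, with cows ordered by LPL signal from 6.96 (cow 0049) to -0.22 (cow 1018). The grey cell is the CD36 spot left out. CD36 and FABP3 follow the LPL order, and ANGPTL4 runs against it, with log2 signals of 1.20 and 0.87 in CONT cows 1024 and 0015 and 4.20 in cow 8027.

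ANGPTL4 was likewise inversely related to FABP3 (r = -0.85, rho = -0.83, adjusted p = 0.0043), FABP4 (r = -0.79, rho = -0.80, adjusted p = 0.0039) and CD36 (r = -0.76 over 11 cows, rho = -0.74, adjusted p = 0.0428, permutation tests). The last did not pass with rho, whose adjusted p was 0.0637, and had r = -0.56 without cows 0015 and 8027. Among the lipases, MGLL was the only gene with a positive correlation with ANGPTL4 (r = 0.54, adjusted p = 0.148, permutation test), and this did not pass. No pair that held MGLL or PNPLA2 passed with all cows. LIPE passed with FABP4 (r = 0.73, adjusted p = 0.0206) and FABP3 (r = 0.68, adjusted p = 0.0493, permutation tests), but neither passed with rho (0.63 and 0.51, adjusted p = 0.0697 and 0.156, permutation tests). Without cows 0015 and 8027, r of LIPE with FABP4 was 0.59, and without cows 8027 and 1018, r of LIPE with FABP3 was 0.27.

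**Figure D4:**
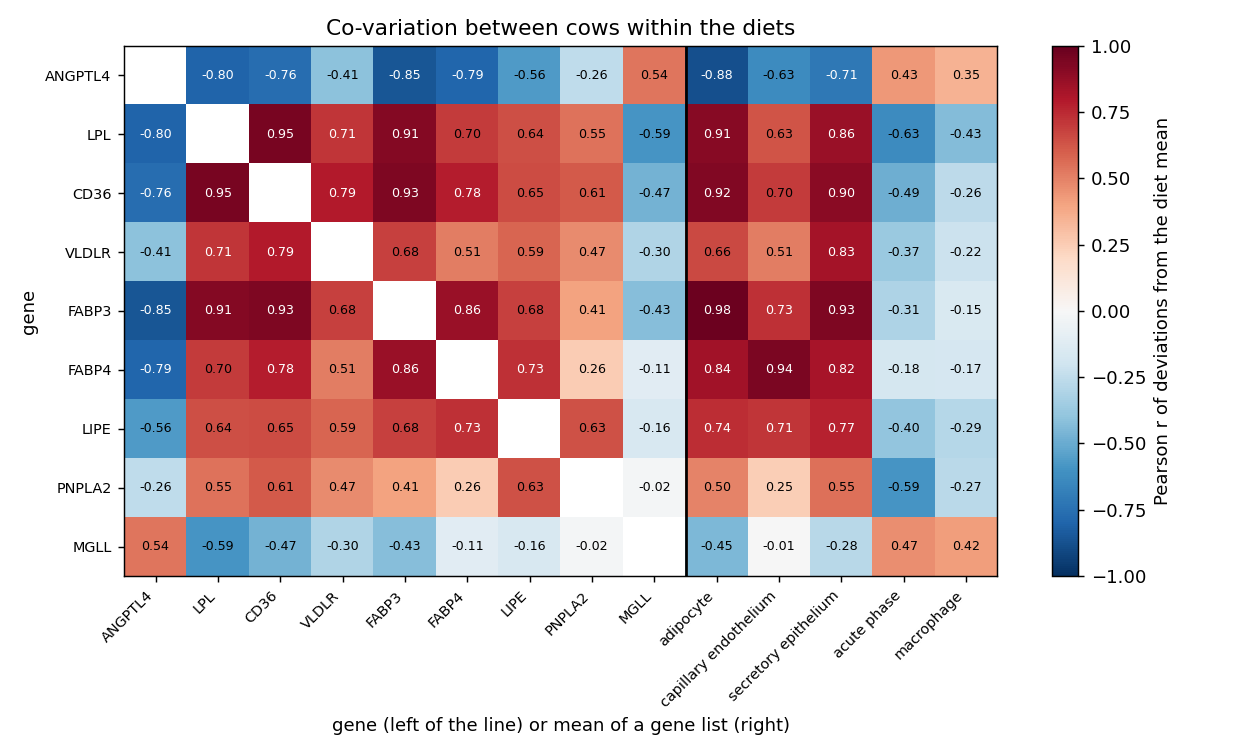
Pearson r between deviations from the group means for each pair of genes (left of the line) and for each gene with the mean of a gene list (right), over 12 cows (11 for CD36). LPL, CD36, FABP3 and FABP4 are positively related (0.70 to 0.95), and ANGPTL4 is negatively related to each of them (-0.85 to -0.76).

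The genes were also set against the mean signal of cell type markers, in 27 relations, adjusted over the 27. Of these, 20 passed an adjusted p of 0.05, 17 positive and 3 negative, 15 passed with rho, 16 with slide as a block and 11 without CONT cow 8027. FABP3 (r = 0.93), CD36 (r = 0.90) and LPL (r = 0.86) followed the secretory epithelium markers, each with an adjusted p of 0.00027 (permutation test), and VLDLR did so with r = 0.83 (adjusted p = 0.0041, permutation test). Without cow 8027, r was 0.87 for FABP3, 0.87 for CD36 and 0.86 for LPL, and all 3 still passed. Without the 2 cows farthest from the median marker level, 8027 and 1018, r was 0.75, 0.85, 0.74 and 0.74. ANGPTL4 was inversely related to these markers (r = -0.71, adjusted p = 0.0176, permutation test), but with r = -0.35 without the same 2 cows, so the relation rests on them. It also missed the threshold with slide as a block (r = -0.70, adjusted p = 0.0524, permutation test). FABP4 (r = 0.82) and LIPE (r = 0.77) passed as well, and neither did so without cow 8027 (r = 0.60 and 0.62, adjusted p = 0.09 and 0.156, permutation tests). LIPE also missed the threshold with rho (0.52, adjusted p = 0.116), with normexp (r = 0.53, adjusted p = 0.135) and with the mean over its probes (r = 0.57, adjusted p = 0.0862, permutation tests). Between the diets, 10 of the 12 epithelial markers had a higher mean in REST, with a median difference of 0.28, against 6 of 12 and 0.01 without cow 8027. The part of these markers in the differences of the genes was not tested.

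FABP4 was the gene with the highest correlation with capillary endothelium markers (r = 0.94, rho = 0.87, adjusted p = 0.0021, permutation test). It was 0.79 without cows 8027 and 7043, and 0.69 without cow 8027 alone (adjusted p = 0.0239, permutation test). The 17 endothelial markers measured had a mean log2 signal of -0.58 in cow 8027 and 1.22 to 1.5 in the other CONT cows, against 0.91 to 1.80 in REST. LPL (r = 0.63), CD36 (r = 0.70), FABP3 (r = 0.73), LIPE (r = 0.71) and ANGPTL4 (r = -0.63) also passed with these markers. None of these 5 passed without cow 8027, where r was 0.59, 0.57, 0.37, 0.54 and -0.36 in the same order. With rho, LIPE (0.60, adjusted p = 0.0654) and ANGPTL4 (-0.62, adjusted p = 0.0641, permutation tests) did not pass, and with slide as a block LPL (adjusted p = 0.0527) and ANGPTL4 (adjusted p = 0.118, permutation tests) did not. In the difference between the diets, 16 of the 17 endothelial markers had a higher mean in REST, with a median difference of 0.37. Without cow 8027, 13 had a higher mean and the median difference was 0.06. VWF, the clotting factor carrier of endothelial cells, had 0.79 (SE 0.30), the guidance receptor ROBO4 0.63 (SE 0.36) and the water channel AQP1 -0.03 (SE 0.56). Without cow 8027 these were 0.50, 0.29 and -0.39. The part of the endothelial markers in the FABP4 difference was not tested.

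**Figure D5:**
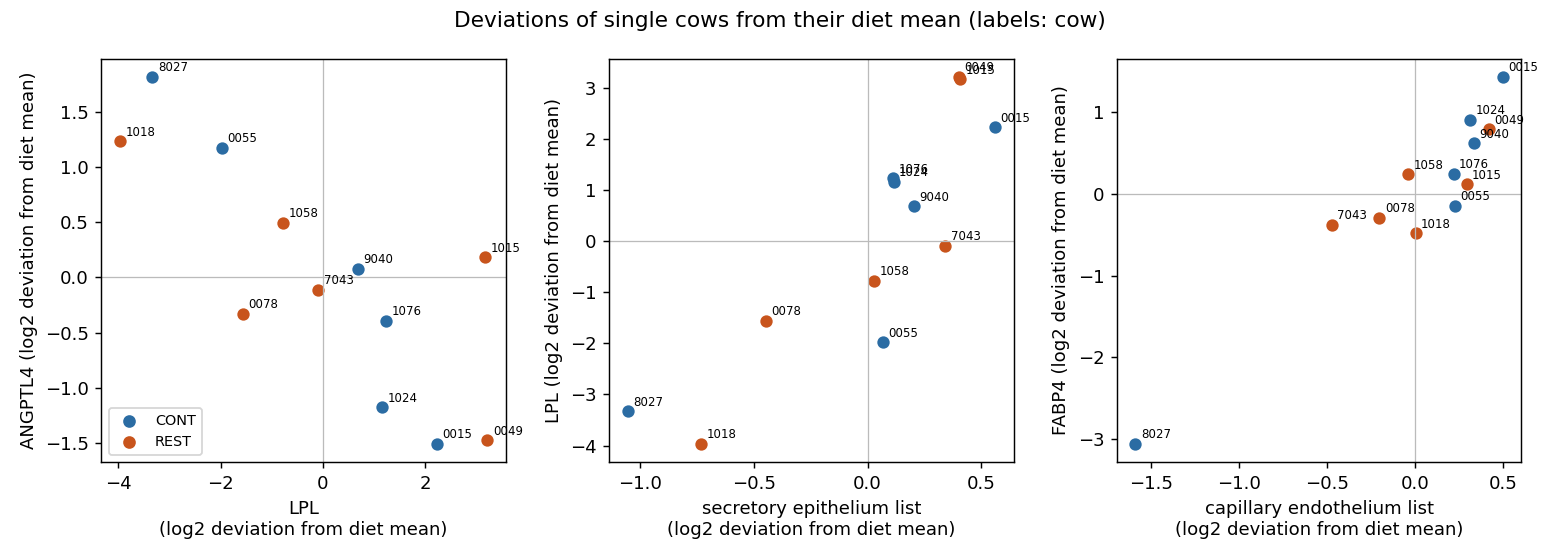
Deviations from the group mean (log2) in single cows, labeled by cow number, for ANGPTL4 against LPL (r = -0.80), LPL against the secretory epithelium markers (r = 0.86) and FABP4 against the capillary endothelium markers (r = 0.94). Cow 8027 lies at the lower left of the last 2 plots, and cow 1018 at the lower left of the middle one.

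The mean of the adipocyte list had the highest correlation with FABP3 (r = 0.98), and high ones with CD36 (0.92), LPL (0.91) and FABP4 (0.84), with adjusted p-values of 0.00027 to 0.00054 (permutation test). With ANGPTL4 it was -0.88 (adjusted p = 0.0011, permutation test). This mean did not measure fat cells alone. Only 4 of the 13 matched markers lay well above background on every array and entered it, CIDEA, GPD1, CFD and SLC2A4, and CIDEA is also made by lactating mammary epithelium. Of the defining markers, ADIPOQ matched no probe, PLIN1 exceeded background clearly on 1 array of CONT and 2 of REST, LEP on 4 and 1, and AQP7 on none. VLDLR (r = 0.66) and LIPE (r = 0.74) also passed with this mean, and neither did so with rho or without cow 8027. PNPLA2 and MGLL passed with none of the 3 lists, except in single alternatives. MGLL passed with this mean when cow 8027 was left out (r = -0.70, adjusted p = 0.0467, permutation test). PNPLA2 passed with it in 1 alternative (adjusted p = 0.0268, permutation test), and its r was highest, 0.66, without CONT cow 1024. Between the diets, 3 of these 4 markers had a higher mean in REST, with CFD at 0.46 (SE 0.23), CIDEA at 0.29 (SE 0.96) and SLC2A4 at -0.24 (SE 0.61). Without cow 8027, CIDEA was at -0.18 and SLC2A4 at -0.79.

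Inflammation of the challenged gland was assessed with acute phase and macrophage lists, chosen after the values were seen. None of the 18 relations passed with r or with rho. The unadjusted p was above 0.05 for each r, and for each rho except those of LPL (-0.68, p = 0.0296) and CD36 (-0.59, p = 0.0483, permutation tests) with the acute phase mean. The acute phase mean had r = 0.43 with ANGPTL4 and -0.63 with LPL (adjusted p = 0.42 for both, permutation test). REST cow 0049 stood apart, with an acute phase mean of 0.99 against 2.58 to 4.60 in the other cows and the lowest macrophage mean, 0.31. Without this cow, 11 of the 36 pairs and 17 of the 27 relations to cell type markers passed. ANGPTL4 with LPL was among them (r = -0.75, adjusted p = 0.0285, permutation test). Between the diets, the median difference was -0.04 over 15 acute phase genes and 0.003 over 10 macrophage markers, and leaving out each cow in turn moved these to -0.20 to 0.19 and -0.20 to 0.22. Single genes went both ways, with the scavenger receptors MSR1 at 1.12 (SE 0.63) and CD163 at 0.85 (SE 0.41), the complement subunit C1QA at -0.40 (SE 0.36) and the growth factor receptor CSF1R at -0.35 (SE 0.39). In the acute phase list, the chemokine CCL5 had 0.65 (SE 0.41) and S100A8 0.31 (SE 0.94), against -0.90 (SE 0.52) for the cytokine TNF and -0.84 (SE 0.87) for the complement factor CFB. Of 5 skeletal muscle markers measured, 2 had a higher and 3 a lower mean in REST, and 1 to 4 were higher when each cow was left out.

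Other genes of the same pathways were taken from 4 lists, and no gene of them passed the adjusted threshold over all probes. Of 11 measured genes of lipase maturation and lipoprotein handling, 5 had a higher and 6 a lower mean in REST (median -0.01, and -0.12 to 0.13 without single cows). The lipase maturation factors LMF1 and LMF2 had differences of 0.24 (SE 0.17) and 0.25 (SE 0.20), whereas the heparan sulfate carrier SDC1 had -0.38 (SE 0.51). Of 12 genes of fatty acid transport and binding, 6 were higher and 6 lower (median 0.01, and -0.05 to 0.11 without single cows). The transporter SLC27A6 had 0.57 (SE 0.54) and the carrier FABP5 0.35 (SE 0.24), against -0.48 (SE 0.27) for the acyl-CoA binding protein DBI and -0.43 (SE 0.68) for the lipid transporter MFSD2A. Without cow 8027, SDC1 had -0.20, SLC27A6 0.38 and MFSD2A -0.90.

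Of 18 genes of lipolysis and lipid droplets, 15 had a higher mean in REST (median 0.26). Without cow 8027, 11 did and the median was 0.07, and it was 0.13 to 0.33 when each of the other cows was left out. ABHD5 met the signal filter in REST only, and 14 of the other 17 genes had a higher mean, with the same median. The glycerol channel AQP3 had 1.03 (SE 0.77) and G0S2, an inhibitor of PNPLA2, had 0.59 (SE 0.68), whereas ABHD12 had -0.18 (SE 0.25) and the lysosomal lipase LIPA -0.13 (SE 0.48). Without cow 8027, AQP3 had 0.60, G0S2 0.23 and LIPA 0.05. Of 17 further PPAR targets, 16 had a higher mean (median 0.27, and 0.22 to 0.33 without single cows), and 3 had an unadjusted p under 0.05, as did 2.62% of all probes. UCP2 met the signal filter in REST only, and 15 of the other 16 had a higher mean. The list was chosen with these results known. PDK4, the kinase that restrains pyruvate oxidation, is represented by 8 probes. Its brightest probe had log2 signals of 2.36 to 3.58 in CONT and 4.08 to 7.0 in REST, without overlap. The difference was 2.23 (SE 0.46), and the other PDK4 probes are not described. UCP2, a mitochondrial carrier, had 0.90 (SE 0.57) with 4 CONT and 6 REST arrays well above background, and VNN1, pantetheinase, had -0.33 (SE 0.46). Among the receptors, PPARG had 0.64 (SE 0.40) and PPARD -0.07 (SE 0.16), by the brightest of 2 and 3 probes. The groups overlapped for PPARG, with log2 signals of -0.95 to 1.83 in CONT and 1.04 to 2.03 in REST. PPARA was well above background on 1 REST array only and is given no difference, and CPT1A matched no probe by accession.

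Finally, the genes most like ANGPTL4 and LPL across cows were sought among 9000 named genes, by Pearson r of deviations over the 12 cows. Those most like LPL were DNAJC12, PRKAR2B, GALM, SDC2 and the stearoyl-CoA desaturase gene SCD, each with r = 0.99. Such high values were common: 977 genes (10.9%) had r above 0.8 with LPL and 726 (8.07%) had r below -0.8, and 2.81% of the genes had a higher r with LPL than FABP3. Those most like ANGPTL4 were TRAF3IP2, C14H8orf76, NXT2, AP4M1 and ARHGEF28, each with r = 0.93. Above 0.8 were 268 genes (2.98%) and below -0.8 were 506 (5.62%). The correlation of LPL with ANGPTL4 was lower than that of 94.4% of the genes. The genes most like ANGPTL4 within the diets had differences between the diets of -0.61 to 0.06. They were picked without regard to that difference, whereas ANGPTL4 was chosen with its own known, so no comparison is drawn.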

How the data were processed

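Arrays of 12 cows (6 CONT, 6 REST; 1 per cow) were analysed. The deposited values are spot intensities that the authors obtained with Agilent Feature Extraction (version 11.0.1.1), background-corrected and not normalized between arrays; the deposited value table holds the same numbers (largest difference 0). Control and outlier spots were left out. Each log2 intensity was centred on the 75th percentile of its array and spots of a probe were averaged, which gave 43653 probes, 205 of them with a missing value. Accessions without version were matched to RefSeq names (ARS-UCD2.0), which named 26832 probes; positions and sequences are not given. The brightest probe stands for a gene. No column was left unmapped (0). The number of arrays limits the precision.

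Diets were compared with limma 3.58.1 (R 4.3.3), lmFit and eBayes, with Benjamini-Hochberg adjustment over all probes. Westfall-Young adjustment, which the methods name, used 100 of 462 distinct splits, and the lowest p it gave was 0.3. The paper, which used GeneSpring, reports genes that passed this adjustment, so the results differ there. The genes and lists were chosen with earlier results of these data known. Named genes are the members, from each list the 2 largest differences each way among genes well above background on every array of a group, the 5 genes most like ANGPTL4 and LPL, and PDK4, CPT1A and the PPAR receptors. One gene that this rule names is not reported here. Relations between cows used Python 3.11.15 and numpy 2.4.6, with Pearson and Spearman coefficients. GPIHBP1 matched no probe by accession, so 27 of the planned relations were run. Alternatives were quantile normalization, median scaling, normexp (offset 50, on median signals), outlier spots kept, the mean over a gene's probes, a filter on dim probes, slide as a block, an intensity trend, the value table, Spearman's rho, and leaving out each cow. Leaving out cows for the gene lists was added after the values were seen. On simulated data, 26% of log2 increases of 1 and 74% of 2 were found (50 probes each among 43653).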

Additional observations from a re-analysis of the deposited data

Results flagged for a closer look

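The 3 values marked here belong to CONT cow 8027 and lay far from the other CONT cows, with a gap to the nearest cow that exceeded Dixon's 95% limit for 6 values. FABP4 had a log2 signal of 2.87 in this cow, against 5.78 to 7.35 in the other CONT cows. The mean of the capillary endothelium markers was -0.58, against 1.22 to 1.5, and that of the secretory epithelium markers was 6.28, against 7.40 to 7.90. A total of 28 groups of values were examined, of which 1.4 would be marked by chance, and the 3 values come from 1 array, so they are not independent.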

How the results depend on the processing

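The count of probes called between the diets was 0 in every alternative run, and 6 or 7 of the genes had a higher mean in REST. No difference of a gene that was past a threshold reversed, since none was. Leaving out each cow in turn, the planned relations that passed numbered 11 to 20 and the pairs 9 to 17, with the lowest counts without CONT cow 8027. The correlation of ANGPTL4 with LPL kept its sign and its side of the threshold in all alternatives, as did those of ANGPTL4 with FABP3 and of LPL with CD36 and FABP3. Among the single relations, 51 values lost and 3 gained the threshold, and 563 did neither. FABP3 changed the sign of its difference in 5 of 20 alternatives. Under the filter on dim probes LIPE was left out. No paired analysis was possible because the labels pair no cows between the groups. The number of arrays limits all values, and signal near background limits LIPE, the second MGLL probe and the dimmest VLDLR probe.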
